A study of Drosophila melanogaster with 12 samples.

Results

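Antisense RNAs are long noncoding transcripts read from the strand opposite another gene, most often a protein coding gene whose exons they overlap. Some are known to act on the gene across from them, and for most of those annotated in *Drosophila* no function is known. The transcripts described here are the expressed antisense RNAs of second instar larvae, that is, the genes whose name in the deposited table begins with asRNA: and whose highest mean over 4 groups of samples was at least the log2 of 10. The rule took 49 of the 502 antisense RNAs listed and of the 24134 genes listed in all. Another 333 antisense RNAs were detected in some sample but stayed under this floor, and 120 were at 0 in every sample. Because the members were chosen by their group means, their levels are given as a description.

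RNA was measured in 12 samples, with 3 samples in each of 4 groups: fat bodies of *dERR* mutants, fat bodies of controls, whole mutant larvae and whole control larvae. The mutants carried the alleles ERR1/2 and the controls were ERR1/+ heterozygotes, so the controls also lacked 1 intact copy, and all were in a w1118 background. *dERR* is the single *Drosophila* member of the estrogen-related receptor family of nuclear receptors, which in larvae promotes the expression of genes of carbohydrate metabolism. The fat body is the insect organ that stores fat and glycogen and secretes blood proteins, and the whole larvae contain it. Larvae were in mid second instar, raised at 25 °C on molasses plates with yeast; the labels give 60 h and the study's methods 66 to 68 h. For dissected fat bodies the methods describe sets of 5 pooled larvae, 15 per genotype, and call the sets technical replicates. They do not say how the whole larvae were pooled. P-values therefore measure the spread between samples, which may be technical in fat bodies and is of unknown kind in whole larvae.

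The values are regularized log2 values (rlog), in which estimated counts are scaled by a size factor per sample and drawn toward the gene's mean over all samples. A value under 0 stands for less than 1 normalized count. The draw is strongest for low genes, and most members were low, so differences are understated. Where a group had almost no signal, its samples took nearly equal values, as for CR44192 in control fat bodies (SD 0.014). The SE and p of such members can therefore look more certain than counts near 0 allow. The number of reads per sample is unknown from these values. All differences are mutant minus control, or fat bodies minus whole animals, on the log2 scale with the standard error (SE) of the fit. They were tested with limma over all 10069 genes with a group mean at or above the same floor, with Benjamini-Hochberg adjustment and a threshold of 0.05, since with 3 samples a group the smallest two-sided p of an exact permutation test is 0.1.

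*dERR* itself was at 8.35 ± 0.08 in fat bodies of mutants and 8.88 ± 0.51 in those of controls, and at 8.16 ± 0.14 in mutant and 8.31 ± 0.13 in control whole animals (SD, n = 3 each), with overlapping samples in both tissues, so its level does not check the genotype labels. Of 11 fat body markers, 8 were tested, of which 2 were higher and 3 lower in mutant fat bodies, and 5 of the 11 had means under the floor in mutant and 3 in control fat bodies. *apolpp*, the precursor of the blood lipoprotein, measured 18.2 to 18.6 in mutant and 18.3 to 19.0 in control fat bodies, whereas the storage protein genes *Lsp1gamma* and *Lsp1beta* were among the 3 that were lower, with *Lsp1beta* at 9.40 to 11.9 in mutant and 12.8 to 17.8 in control fat bodies. The 2 that were higher were *FASN1* and *Lsd-1*. *FASN1* measured 18.0 to 18.4 in mutant and 17.4 to 17.5 in control fat bodies, and *Lsd-1* 14.8 to 14.9 and 14.1 to 14.4. The part of these differences in the results was not tested. The 9 gut digestive enzymes of the marker list all had means under the floor in both fat body groups. The summed linear level of 10 gonad and germ line markers ran from 12.1 to 537 in mutant fat bodies and from 16.6 to 667 in control fat bodies, against 128 to 209 in mutant and 83.8 to 208 in control whole animals, and none of the 6 tested differed by genotype. *Lsp1gamma* was at −0.13, −0.24 and −0.37 in mutant fat bodies, against 7.60 and 7.77 in control replicates 5 and 6 and 15.3 in control replicate 7, which stood apart. Without control replicate 7, 8 antisense RNAs were higher and 3 lower in mutant fat bodies, against 8 and 2 with all samples.

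The members lay on all major chromosome arms, with 15 on 2R, 10 on 3R, 9 on 3L, 9 on X, 3 on 2L and 3 on chromosome 4. Positions were read from Ensembl release 115 (assembly BDGP6.54), a later release than the one the study used, and all 49 members were found in it. Their exons summed to between 351 and 6677 bases, with a median of 1494 bases. Each overlapped at least 1 gene of the opposite strand, called its partner here: 38 overlapped exactly 1 gene and 11 overlapped 2 or more, which gave 63 pairs. In 19 pairs the genes met head to head, in 14 tail to tail, in 18 the antisense RNA lay inside its partner's span and in 12 the partner lay inside that of the antisense RNA. Exons of both strands overlapped for 48 of the 49 members, and 43 of them crossed coding exons. The exception was bsAS, an antisense RNA on 2R at 24351477 to 24369689, which lies within *bs*, the fly homolog of serum response factor, without sharing exonic bases. The kit marked strand, but the strand setting used in counting was not given in the sources used here. Reads from shared exons may therefore have been assigned to either gene, and each change below is set beside that of the partner.

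**Figure D1:**
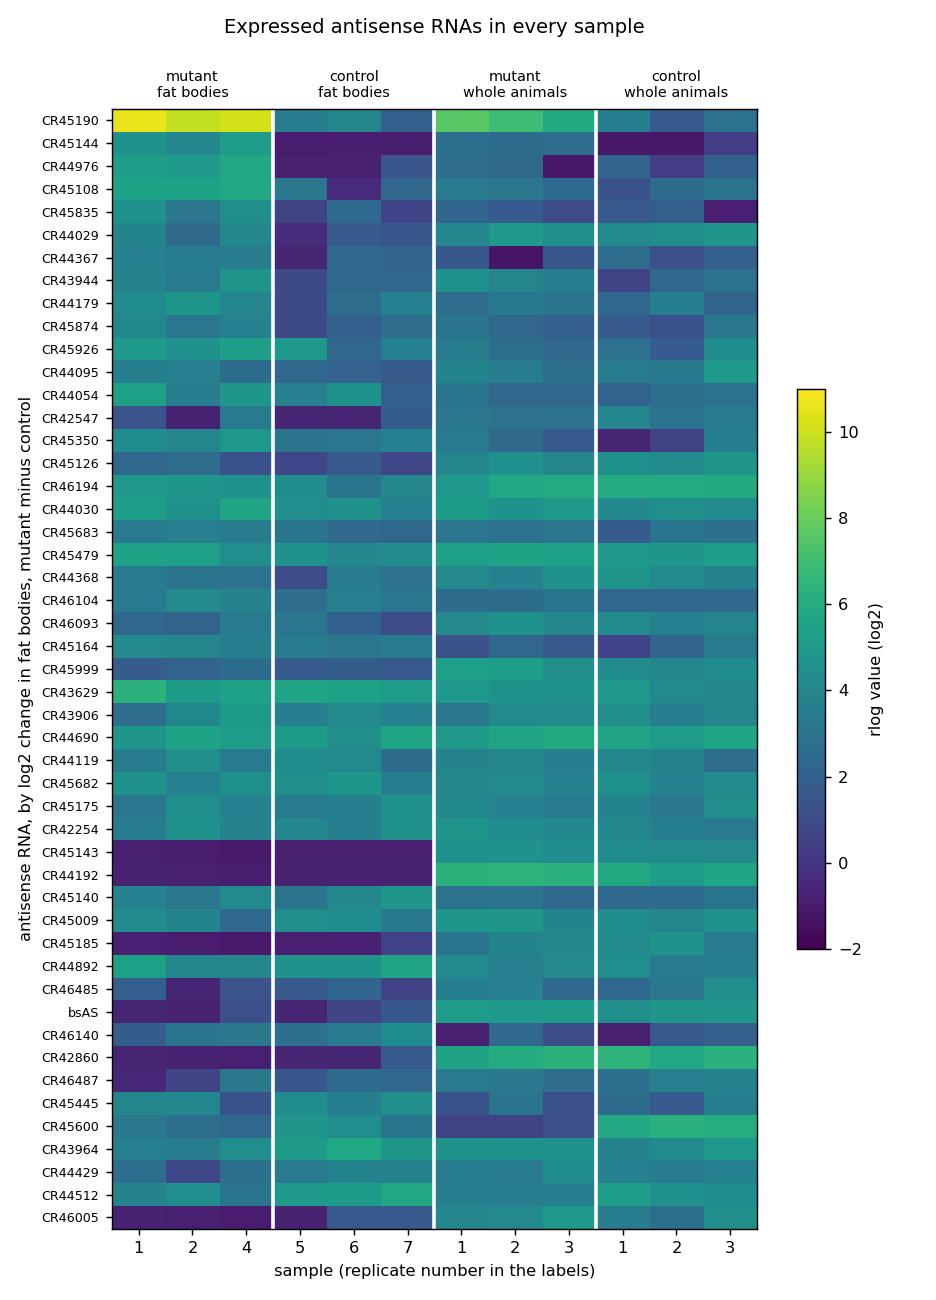
Regularized log2 value of each of the 49 antisense RNAs (rows, ordered by the difference between mutant and control fat bodies) in each of 12 samples (columns, by group and replicate number). CR45190 is the brightest row in mutant fat bodies, at 9.82 to 10.6, and CR45143, CR44192 and CR45185 are among the dark rows in fat bodies of both genotypes.

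Most of the antisense RNAs were close to the floor. The median group mean of the 49 was 3.73 in mutant fat bodies, 3.13 in control fat bodies, 3.72 in mutant whole animals and 3.67 in control whole animals, and 6 of them reached a group mean of the log2 of 50. Replicates differed more than for other genes: the median SD of the members was 0.529 in mutant and 0.667 in control fat bodies, and 0.426 in mutant and 0.540 in control whole animals, against 0.209, 0.223, 0.164 and 0.134 over all genes tested in the same groups. All 4 groups reached the floor for 14 members. Another 16 members reached it in fat body groups only, 11 of them in mutant fat bodies alone, 11 in both whole animal groups and neither fat body group, and 3 in control whole animals alone. The member just inside the floor was CR46485, at 3.34 in control whole animals, and CR44806, at 3.31 in mutant fat bodies, was just outside. CR46485 runs opposite *Jheh1*, *Jheh2* and *Jheh3*, the juvenile hormone epoxide hydrolases, which were lower by 2.34, 1.92 and 4.29 in mutant fat bodies, while the antisense RNA was at 0.86 ± 1.34 in mutant and 1.44 ± 0.88 in control fat bodies (SD, n = 3 each).

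By the mean over the 6 fat body samples, the highest members were CR45190 at 6.67, CR43629 at 5.51, CR44690 at 5.12, CR44892 at 4.69 and CR45479 at 4.69. By the mean over the 6 whole animals, they were CR42860 at 6.07, CR44192 at 5.97, CR46194 at 5.75, CR44690 at 5.50 and CR45479 at 5.24. CR44690 and CR45479 were thus high in both tissues. They lie beside each other on the X chromosome, at 2175817 to 2180816 and 2173480 to 2175855, and overlap tail to tail by 39 exonic bases. Across from them lie *Cyp4d2*, *Cyp4ae1* and *Cyp4d14*, cytochrome P450 genes of 1 family. *Cyp4d14* was lower by 3.00 and *Cyp4d2* by 1.23 in mutant fat bodies, whereas CR45479 was at 5.47, 5.36 and 4.38 in mutant and 4.62, 4.00 and 4.29 in control fat bodies, a difference of 0.77 ± 0.31 that did not pass (adjusted p = 0.11, limma). For CR44690 the difference was 0.12 ± 0.35 (adjusted p = 0.85, limma). CR43629 lies across the first exons of *CG31522* and CR44892 across those of *svr*, a carboxypeptidase D gene; neither antisense RNA passed a genotype test. CR46194, on 2R at 12169558 to 12171706, runs opposite the end of *SmD3*, a splicing factor gene, and also overlaps genes of its own strand, among them mir-281-1, mir-281-2 and *Oda*.

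In fat bodies, 8 of the 49 antisense RNAs were higher and 2 were lower in *dERR* mutants than in controls. Of all genes tested, 11.1% were higher and 11.2% lower by the same test. Against a log2 change of 1 (limma's treat), 3 members were higher in mutant fat bodies, beside 1.76% of all genes, and of the 49 members 10 had an adjusted p under 0.05 without that limit. The median difference of the 49 was 0.41, beside −0.07 over all genes. The floor bears on these counts, since all 8 that were higher had a control mean under the floor. Of the 8, 7 reached the floor in mutant samples only, so that a member could enter because it was high in mutants. In 5 of them, CR45144, CR44976, CR45108, CR45835 and CR45874, this was in mutant fat bodies alone. The fat body p-values of these members, given below, are thus not independent of how the members were chosen. Among the 17 members that reached the floor in fat bodies of both genotypes, 2 passed and both were lower. Mutant fat bodies lay wholly above control fat bodies for 15 members, wholly below for 8 and overlapped for 26. Of all genes tested, 14.2% lay wholly above and 25.8% wholly below. Among the 8 were CR45143, CR44192, CR45185, CR42860 and CR46005, whose mutant fat bodies were all under 0. CR44192 measured −0.72, −0.82 and −0.92 in mutant and −0.71, −0.71 and −0.69 in control fat bodies. At this bottom of the scale the order does not show a difference in expression. How far such genes make up the shares over all genes was not tested.

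The largest difference was that of CR45190, on 3R at 31588279 to 31590411 on the minus strand. It measured 10.6, 9.82 and 10.2 in mutant fat bodies, against 3.45, 3.92 and 2.00 in control fat bodies. In whole animals it measured 7.64, 6.94 and 5.91 in mutants, against 3.60, 1.80 and 2.91 in controls. The genotypes did not overlap in either tissue. The difference was 7.08 ± 0.61 in fat bodies (adjusted p = 1.5e-05, limma) and 4.06 ± 0.61 in whole animals (adjusted p = 0.0031, limma), and it passed in every alternative fit of each tissue. The 2 differences were not shown to differ from each other (interaction 3.02 ± 0.86, adjusted p = 0.051, limma).

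The gene across from CR45190, *CG1635*, lies wholly within its span and shares 1290 exonic bases with it. *CG1635* measured 9.11, 9.46 and 9.31 in mutant and 8.54, 8.58 and 8.24 in control fat bodies, a difference of 0.84 ± 0.12 (adjusted p = 0.00047, limma), and in whole animals its difference was −0.06 ± 0.12. The partner's change was thus a small part of that of the antisense RNA. The genes within 5 kb were looked at after these values were seen. *CG1638*, whose start lies 170 bases from that of CR45190 on the other strand, measured 6.25, 5.93 and 6.43 in mutant fat bodies, against 1.98, 1.58 and 1.43 in control fat bodies (4.54 ± 0.30), and differed by 0.13 ± 0.30 in whole animals. *CG1774*, next along that strand, measured 15.7, 15.3 and 15.6 in mutant and 10.9, 11.4 and 9.81 in control fat bodies (4.83 ± 0.39), and was higher by 2.39 ± 0.39 in mutant whole animals. The other 2 genes tested in this window did not pass: *rod*, whose end lies 35 bases from that of CR45190, differed by 1.29 ± 0.55 in fat bodies (adjusted p = 0.13, limma) and *RpL6*, a ribosomal protein gene, by −0.07 ± 0.11 (adjusted p = 0.74, limma). In whole animals *CG1774* was the only gene of the 5 to pass.

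CR45144, on 2R at 17036695 to 17037982, lies inside *RhoGEF2*, which encodes an exchange factor of the small GTPase Rho1. It measured 4.63, 4.04 and 5.18 in mutant fat bodies, against −0.94, −0.93 and −0.91 in control fat bodies. In whole animals it measured 2.76, 2.62 and 2.65 in mutants, against −1.15, −1.18 and 0.35 in controls. Control samples of both tissues were therefore at or under about 1 normalized count, and mutant samples were all above. The differences were 5.54 ± 0.42 in fat bodies (adjusted p = 6.1e-06, limma) and 3.34 ± 0.42 in whole animals (adjusted p = 0.00088, limma). *RhoGEF2* was at 10.2 in mutant and 9.24 in control fat bodies on average (0.96 ± 0.17, adjusted p = 0.0018, limma) and differed by −0.02 ± 0.17 in whole animals. The antisense RNA shares 83.2% of its exonic bases with coding exons of *RhoGEF2*.

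CR44976, on 2L at 1708452 to 1709244, passed the genotype test in fat bodies alone. It measured 5.30, 5.00 and 5.74 in mutant fat bodies, against −0.79, −0.78 and 1.45 in control fat bodies, a difference of 5.38 ± 0.99 (adjusted p = 0.0026, limma). In whole animals it measured 2.67, 2.49 and −1.10 in mutants and 2.24, 0.35 and 2.05 in controls, which overlapped, and the difference was −0.19 ± 0.99 (adjusted p = 0.999, limma). Its partner *CG17660*, which it shares 79.0% of its exonic bases with, was higher by 0.88 ± 0.12 in mutant fat bodies.

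CR45108, on 2R at 7783334 to 7785585, meets *cn* head to head, the gene of kynurenine 3-monooxygenase in the pathway of the brown eye pigment. It measured 5.56, 5.55 and 5.89 in mutant fat bodies, against 3.23, −0.44 and 2.30 in control fat bodies, a difference of 3.97 ± 0.80 (adjusted p = 0.0045, limma). *cn* was low in fat bodies, at 2.68, 0.74 and 2.65 in mutants and −0.29, −0.28 and 1.48 in controls, and its difference of 1.72 ± 0.57 missed the threshold (adjusted p = 0.055, limma). In whole animals *cn* measured 7.24 to 7.64 over all samples and CR45108 3.43, 3.18 and 2.53 in mutants and 1.29, 2.59 and 3.00 in controls. CR45108 overlapped between the genotypes there and did not pass (adjusted p = 0.90, limma).

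The other 4 members that were higher in mutant fat bodies all lie inside their partners. CR44029, on chromosome 4 at 879374 to 884752 in *unc-13*, a gene of synaptic vesicle priming, measured 3.88, 2.52 and 3.94 in mutant fat bodies, against −0.36, 1.72 and 1.49 in control fat bodies (2.50 ± 0.58, adjusted p = 0.0099, limma). In whole animals the means were 4.49 in mutants and 4.48 in controls. *unc-13* was itself higher in mutant fat bodies, by 1.41 ± 0.41. CR43944, on 3L at 20389853 to 20391387 in *fbl*, a pantothenate kinase gene of coenzyme A synthesis, measured 3.81, 3.34 and 4.72 in mutant fat bodies, against 0.85, 2.36 and 2.31 in control fat bodies (2.12 ± 0.64, adjusted p = 0.036, limma). Its difference in whole animals was of like size, 2.03 ± 0.64, but did not pass (adjusted p = 0.16, limma). *fbl* was higher by 2.03 ± 0.12 in mutant fat bodies and by 0.59 ± 0.12 in mutant whole animals. CR43944 did not pass without mutant fat body replicate 1 or 4, control fat body replicate 5 or mutant whole animal replicate 2 (adjusted p = 0.065, 0.117, 0.122 and 0.053, limma).

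CR45835, on 3L at 7361639 to 7363598 in *Sec63*, a gene of protein transport into the endoplasmic reticulum, measured 4.63, 3.13 and 4.43 in mutant fat bodies, against 0.69, 2.52 and 0.63 in control fat bodies (2.78 ± 0.79, adjusted p = 0.027, limma). *Sec63* differed by 0.23 ± 0.05. The call on CR45835 was lost without mutant fat body replicate 1 or 4 or control fat body replicate 5 or 7 (adjusted p = 0.081, 0.079, 0.087 and 0.078, limma). CR45874, on 3L at 9510017 to 9510889 across from *RpS9*, a ribosomal protein gene, was at the threshold. It measured 4.05, 3.09 and 3.72 in mutant fat bodies, against 0.86, 1.99 and 2.63 in control fat bodies (1.79 ± 0.58, adjusted p = 0.0498, limma), and *RpS9* differed by −0.04. Leaving out any 1 of 9 samples took its adjusted p above 0.05, to at most 0.159, the most of the 8: these were the 3 mutant fat bodies, control fat body replicates 5 and 6, the 3 mutant whole animals and control whole animal replicate 1. CR45874 also missed the threshold with no filter on low values, with array weights, with samples centred on their medians and with each tissue fitted alone (adjusted p = 0.086, 0.111, 0.051 and 0.126, limma).

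CR44512 and CR43964 were lower in mutant fat bodies. CR44512, on the X chromosome at 19667018 to 19667746, meets *Zw* head to head and covers the first exons of this gene, which encodes glucose-6-phosphate dehydrogenase, the entry enzyme of the pentose phosphate pathway. It measured 3.80, 4.35 and 3.02 in mutant fat bodies, against 5.00, 5.08 and 5.78 in control fat bodies (−1.56 ± 0.38, adjusted p = 0.013, limma). In whole animals it measured 3.59, 3.57 and 3.60 in mutants and 5.21, 4.57 and 4.32 in controls, which did not overlap, but the difference of −1.12 ± 0.38 did not pass (adjusted p = 0.21, limma). *Zw* was lower by 1.18 ± 0.17 in mutant fat bodies and by 1.98 ± 0.17 in mutant whole animals.

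CR43964, on 2R at 18775411 to 18777166, spans *CG15093*, which is predicted to encode 3-hydroxyisobutyrate dehydrogenase of valine breakdown. It measured 3.67, 3.48 and 4.37 in mutant fat bodies, against 5.06, 5.76 and 4.90 in control fat bodies (−1.40 ± 0.36, adjusted p = 0.017, limma), and without mutant fat body replicate 2 or control fat body replicate 6 it missed the threshold (adjusted p = 0.059 and 0.062, limma). *CG15093* was lower by 3.34 ± 0.19 in mutant fat bodies and differed by −0.03 ± 0.19 in whole animals, where CR43964 differed by 0.29 ± 0.36. The number of members lower in mutant fat bodies was 4 without mutant replicate 1 or without mutant replicate 4, and 1 without mutant replicate 2 or without control replicate 6, and the number higher was 5 without mutant replicate 1. One further member, CR44429, was at 2.69, 0.80 and 2.81 in mutant and 3.30, 3.86 and 3.82 in control fat bodies and just missed the threshold (−1.56 ± 0.51, adjusted p = 0.051, limma).

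The genes within 5 kb did not all move with these antisense RNAs. Around the 8 members that were higher in mutant fat bodies 27 genes were tested, partners included, of which 8 were higher and 1 was lower in mutant fat bodies. Of all genes tested, 11.1% were higher and 11.2% lower. Those that were higher were the partners *fbl*, *unc-13*, *CG17660*, *RhoGEF2*, *CG1635* and *Sec63*, which may share reads with the members. Beside these were *CG1638* and *CG1774*, both near CR45190. The 1 that was lower was *CG12825*, 3621 bases downstream of CR45108, with a difference of −2.99 ± 0.36. Around the 2 members that were lower, 6 genes were tested, of which 1 was higher and 3 were lower. The 1 that was higher was *et*, upstream of CR44512, with 0.87 ± 0.14.

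**Figure D2:**
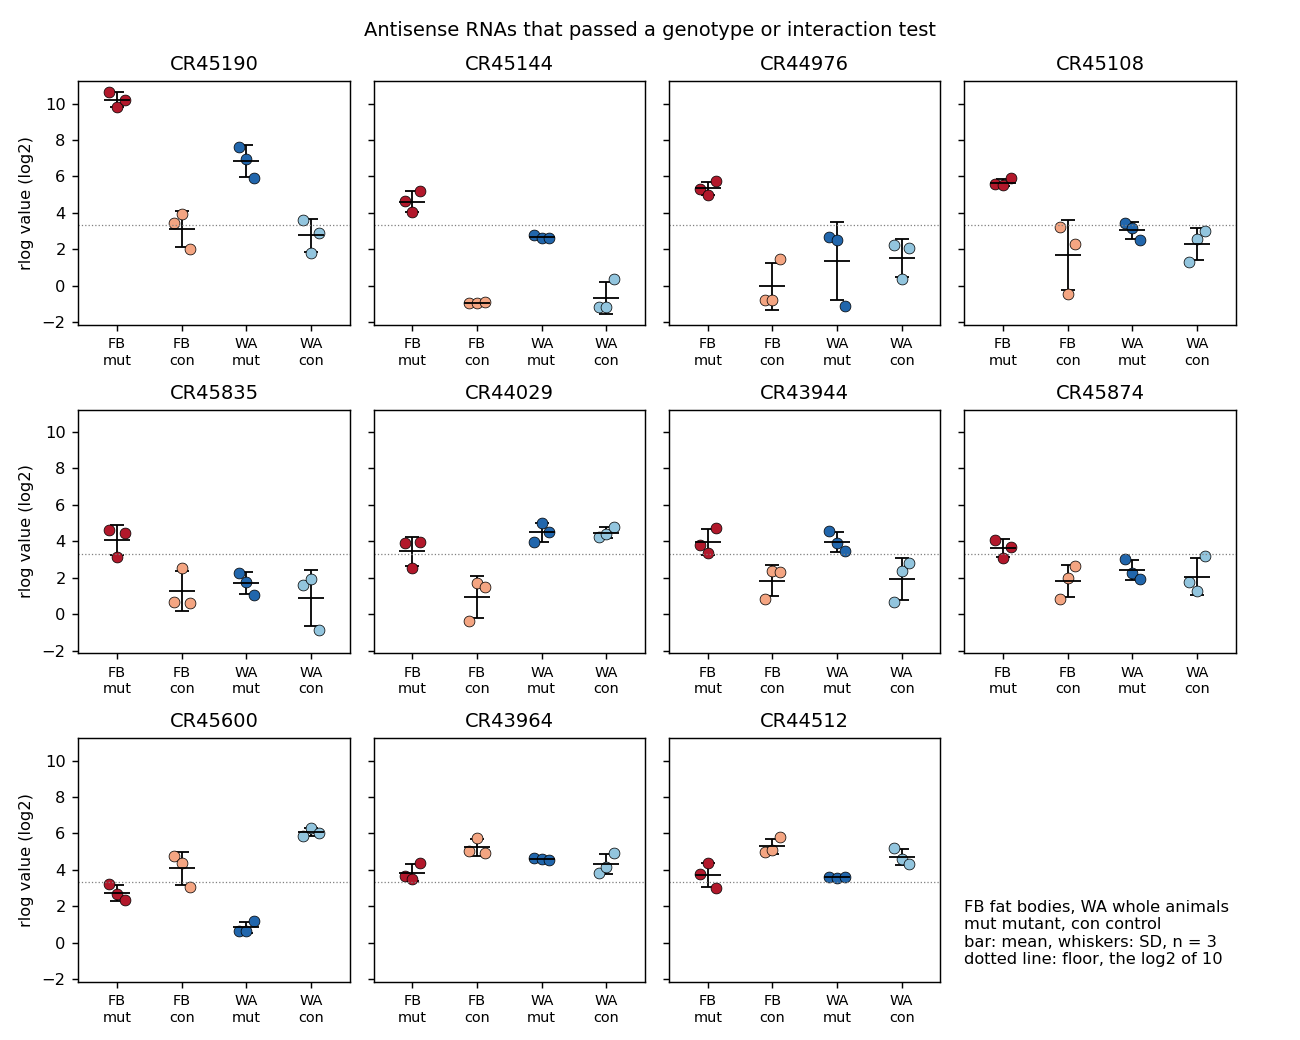
Regularized log2 values of the 11 antisense RNAs with an adjusted p under 0.05 for genotype in either tissue or for the interaction, one panel each. Points are samples, bars the group mean and whiskers the SD (n = 3); mutant fat bodies of CR45190 sit between 9.82 and 10.6, and mutant whole animals of CR45600 between 0.65 and 1.19.

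In whole animals, 2 of the 49 antisense RNAs were higher and 1 was lower in mutants. Of all genes tested, 0.725% were higher and 2.56% lower, and past a log2 change of 1 the shares were 0.119% and 1.11%. All 3 members passed that stricter test too. The members that were higher were CR45190 and CR45144, described above. As in fat bodies, the floor bears on these counts. For all 3 the other genotype had a whole animal mean under the floor. CR45144 was under it in both whole animal groups, with means of 2.68 in mutants and −0.66 in controls, and entered through mutant fat bodies alone. Mutant whole animals lay wholly above control whole animals for 11 members and wholly below for 2, beside 13.7% and 13.5% of all genes, and overlapped for 36. The median difference was 0.04, beside 0.01 over all genes. With array weights 4 members were higher and 2 lower, and with each tissue fitted alone CR45144 did not pass in whole animals (adjusted p = 0.064, limma).

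CR45600 was the member that was lower in mutant whole animals. It lies on 3R at 15136985 to 15140121 on the minus strand, across from *CG3984*, which is wholly within its span, and the start of *CG3987*. It measured 0.65, 0.66 and 1.19 in mutant whole animals, against 5.85, 6.32 and 6.04 in control whole animals. The 2 sets were far apart, with a difference of −5.23 ± 0.43 (adjusted p = 4.7e-05, limma) that passed in every alternative fit. In fat bodies it measured 3.21, 2.69 and 2.32 in mutants, against 4.77, 4.38 and 3.06 in controls, which overlapped, with a difference of −1.33 ± 0.43 that just missed the threshold (adjusted p = 0.0501, limma). All fat bodies of mutants thus lay above all whole mutants, and all fat bodies of controls below all whole controls.

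Of the 4 genes tested within 5 kb of CR45600, looked at after its values were seen, 3 were lower in mutant fat bodies and 2 in mutant whole animals. The shares over all genes were 11.2% in fat bodies and 2.56% in whole animals. *CG3984* was lower by 1.36 ± 0.13 in mutant fat bodies and by 1.13 ± 0.13 in mutant whole animals, and *CG3987* by 2.32 ± 0.26 in mutant fat bodies, with a difference of −0.15 ± 0.26 in whole animals that did not pass (adjusted p = 0.97, limma). *GlyS*, the glycogen synthase gene, lies on the same strand as CR45600 and 1722 bases upstream of it. It measured 10.02, 9.72 and 9.90 in mutant whole animals, against 11.6, 11.5 and 11.6 in control whole animals (−1.67 ± 0.09), and differed by −2.62 ± 0.09 in fat bodies. The change of *GlyS* was thus larger in fat bodies and that of CR45600 larger in whole animals. CR45600 also overlaps *CG6912* on its own strand, and reads of the 2 may be shared. *CG6912* passed in neither tissue, with −0.25 ± 0.12 in fat bodies and −0.30 ± 0.12 in whole animals (adjusted p = 0.16 and 0.30, limma).

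**Figure D3:**
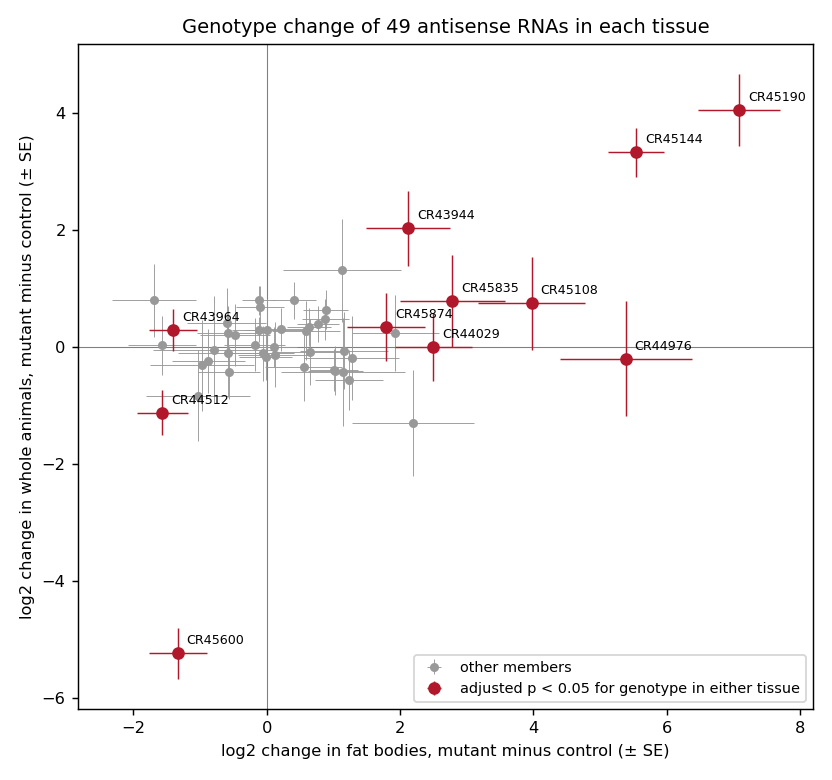
Log2 difference between mutants and controls in fat bodies (horizontal) and in whole animals (vertical) for the 49 antisense RNAs, with SE. CR45190 and CR45144 lie to the upper right, CR44976 far to the right near 0 in whole animals, and CR45600 at the bottom, at −5.23 in whole animals.

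The difference between the tissues in the change by genotype was tested as an interaction. It passed for 3 members, all with a change in fat bodies above that in whole animals, beside 5.86% of all genes in that direction and 4.39% in the other. For CR45600 it was 3.90 ± 0.61 (adjusted p = 0.0029, limma), which comes from a large fall in whole animals and a small difference in fat bodies. For CR44976 it was 5.58 ± 1.40 (adjusted p = 0.030, limma) and for CR45144 2.21 ± 0.59 (adjusted p = 0.040, limma). CR44976 lost this call without mutant fat body replicate 1 or 4, control fat body replicate 5 or 6, or control whole animal replicate 1 or 3 (adjusted p between 0.050 and 0.080, limma). CR45144 lost it without mutant fat body replicate 1 or 4, or any 1 control fat body or mutant whole animal (adjusted p between 0.055 and 0.083, limma), and without mutant fat body replicate 1 the number of members was 1.

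The partners of the antisense RNAs were described in the same way. Of the 56 partners tested that are not members themselves, 9 were higher and 19 lower in mutant fat bodies. That was 50% in all, beside 22.3% of all genes tested. In mutant whole animals 1 was higher and 2 were lower, beside 0.725% and 2.56% of all genes. A single partner was then taken for each member, the protein coding gene with the longest exonic overlap among those tested, which gave 47 pairs. In fat bodies 10 of the antisense RNAs and 24 of the partners passed, and both passed in 8 pairs, that is, in 80.0% of the pairs with a called antisense RNA and 33.3% of those with a called partner. In all 8 both genes moved the same way. Of the 47 differences, 29 had the same sign on both strands, and across pairs Pearson's r was 0.42 and Spearman's rho 0.45. These are descriptions across genes, which share libraries and, where exons overlap, possibly reads; the part of shared reads was not tested. In the other 16 pairs with a called partner the antisense RNA did not pass, as for CR45479 and *Cyp4d14*. In whole animals 3 of the antisense RNAs and 3 of the partners passed, with 1 pair in common, CR45600 and *CG3984*.

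**Figure D4:**
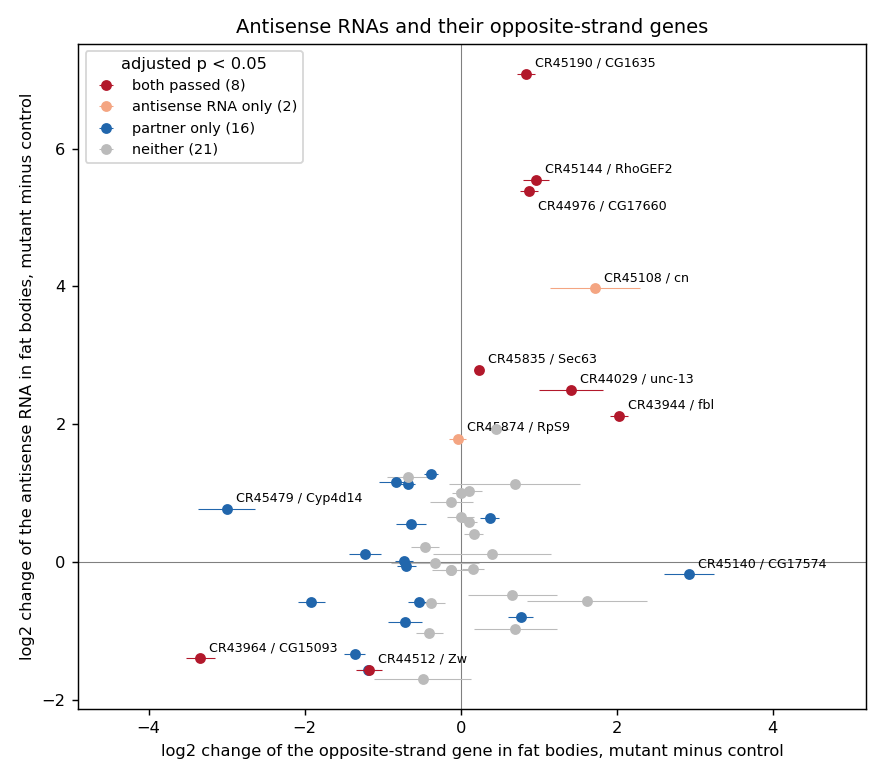
Log2 difference between mutant and control fat bodies of the opposite-strand gene (horizontal, with SE) and of the antisense RNA (vertical) for 47 pairs, coloured by which of the 2 had an adjusted p under 0.05. The 8 pairs in which both passed lie in the upper right or lower left part.

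Other noncoding RNAs were set beside the antisense RNAs. Of 91 genes named lncRNA: that were tested, 13 were higher and 11 lower in mutant fat bodies. That was 26.4% in all, near the 22.3% of all genes tested. Their median difference was −0.11, beside −0.07 over all genes. In whole animals 0 passed in either direction, beside 0.725% higher and 2.56% lower of all genes (limma). At an unadjusted p under 0.05 limma gave 4 higher and 0 lower. Among the 91, Hsromega, a heat shock RNA of nuclear speckles, was at 8.64 in mutant and 7.82 in control fat bodies (0.82 ± 0.18, adjusted p = 0.0080, limma). roX1, an RNA of the male dosage compensation complex, ranged from 6.93 to 10.2 in mutant fat bodies and from 8.48 to 9.94 in control fat bodies. The sex of the pooled larvae is not given in the labels, and its part in the results was not tested.

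By chromosome, 5 of the 11 members that passed a genotype or interaction test lay on chromosome 3, where *dERR* also lies, beside 19 of the 49 members and 44.5% of all genes tested that have a position. Mutants had a chromosome 3 from each of 2 mutant stocks, and controls 1 from a mutant stock and 1 from w1118. For genes on this chromosome, among them CR45190 and CR45600, the loss of *dERR* and other differences between these chromosomes cannot be told apart. The same holds for other chromosomes in part. Mothers came from the same mutant stock, but fathers came from the other mutant stock for mutants and from w1118 for controls. For members such as CR45144 on 2R and CR44976 on 2L, differences between the fathers' stocks and the loss of *dERR* cannot be told apart either.

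Between the tissues, on the deposited scale, more antisense RNAs were lower than higher in fat bodies past a log2 change of 1. In mutants 2 of the 49 were higher in fat bodies than in whole animals, CR45190 and CR44976, and 8 were lower by that test (limma's treat), beside 4.58% and 31.3% of all genes. In controls 0 were higher and 10 lower, beside 4.57% and 32.3% of all genes; at an unadjusted p under 0.05 treat gave 0 higher and 13 lower, and without the limit of 1 the counts at an adjusted p under 0.05 were 5 higher and 16 lower, beside 24.9% and 46.8% of all genes. In mutants the counts without that limit were even, with 12 higher and 12 lower, beside 24.4% and 46% of all genes. The median tissue difference of the 49 was 0.06 in mutants, where 25 were above 0, and −0.27 in controls, where 20 were. The floor bears on these counts as well. All 8 members that were lower in mutants by treat, which were also lower in controls, reached it in whole animals alone. CR45190 reached it in mutant groups alone and CR44976 in mutant fat bodies alone. Members could thus enter through the group in which they were high. The split also depends on scaling. The median over all genes was −0.36 in mutants and −0.38 in controls, and with each sample centred on its median it became 0.49 and 0.52; 11 members in mutants and 6 in controls were then higher in fat bodies. Leaving out control whole animal replicate 3 gave 4 higher members in mutants and 1 in controls, and leaving out mutant fat body replicate 4 or mutant whole animal replicate 3 gave 1 in mutants. Fewer cells that make an RNA and less of it per cell cannot be told apart in these samples.

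The 5 largest falls in controls were close to or under 0 in nearly all fat body samples, so their SE and p may be too small. CR44192, on 3R at 10052846 to 10054298, measured −0.71, −0.71 and −0.69 in control fat bodies, against 5.18 to 5.89 in the 3 control whole animals (−6.27 ± 0.25, adjusted p = 7.3e-09, limma's treat). It overlaps *Fancl* on its own strand and meets *Npc2e* head to head, a gene of the sterol-binding Niemann-Pick type C2 family, which averaged −0.59 and 7.13 in the same groups. CR42860, on 3L at 2088166 to 2089626, lies across the 3′ UTR of *sls*, which encodes a titin-like protein of muscle. It measured −0.63, −0.62 and 1.66 in control fat bodies, against 6.45, 5.79 and 6.31 in control whole animals (−6.05 ± 0.55), and *sls* averaged 6.32 in control fat bodies and 12.01 in control whole animals. Both genes of each of these pairs were thus lower in fat bodies than in whole animals.

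CR45143 differed in this from its partner. On 2R at 15676441 to 15676845, with 351 exonic bases the shortest member, it meets *fus* head to head, a gene of an RNA-binding splicing factor. CR45143 measured −0.87, −0.87 and −0.85 in control fat bodies, against 4.32, 4.15 and 4.14 in control whole animals (−5.07 ± 0.21), whereas *fus* averaged 10.7 in control fat bodies and 9.98 in control whole animals. CR45185, on the X chromosome at 10044909 to 10048156 in the chitinase gene *Cht6*, measured −0.88, −0.87 and 0.50 in control fat bodies, against 4.17, 4.69 and 3.34 in control whole animals (−4.48 ± 0.46), and *Cht6* averaged 1.46 and 9.34. bsAS measured −0.65, 0.70 and 1.52 in control fat bodies, against 4.46, 4.74 and 4.78 in control whole animals (−4.14 ± 0.59), with *bs* at 7.04 and 7.74. So *fus* and *bs* were present in fat bodies of controls while the RNA across from each was at or near the bottom of the scale.

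In mutants the tissue differences of these 5 were of like size, from −7.19 ± 0.25 for CR44192 to −4.61 ± 0.46 for CR45185, and all 5 passed again. CR45126, CR45999 and CR46005 passed in both genotypes as well. CR44029 and CR46194 passed in controls and not in mutants, with −1.04 ± 0.58 for CR44029 in mutants and −3.54 ± 0.58 in controls, and −0.74 ± 0.36 for CR46194 in mutants and −2.14 ± 0.36 in controls; the interaction did not pass for either (adjusted p = 0.086 and 0.12, limma). Muscle markers, summed, ran from 655 to 2125 in control fat bodies, against 270475 to 330207 in control whole animals, and the part of tissue makeup in these differences was not tested.

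**Figure D5:**
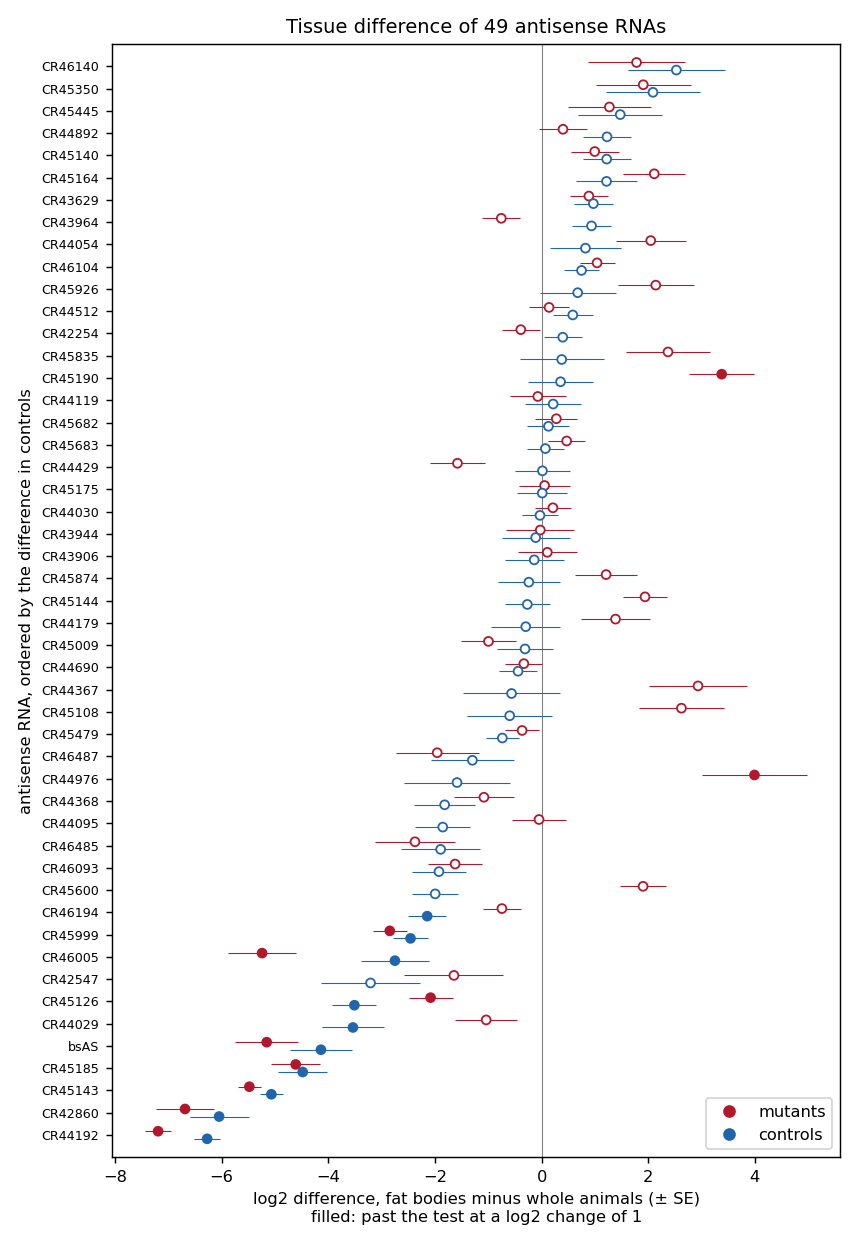
Log2 difference between fat bodies and whole animals of the 49 antisense RNAs in mutants and in controls, with SE; filled points passed the test against a log2 change of 1. CR44192 and CR42860 are lowest in both genotypes, and the filled points to the right of 0 are CR45190 and CR44976 in mutants.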

How the data were processed

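Poly-A RNA of 12 samples was sequenced in pairs. The authors estimated transcript abundance with Salmon 1.10.2 on the BDGP6 assembly, aggregated it per gene (tximport) and deposited log2 values made with the rlog function of DESeq2 1.42.0, with no counts, so depth is unknown. No further normalization was applied. In R 4.3.3, limma 3.58.1 fitted one mean per group over all 12 samples with a variance trend and tested 10069 genes, with Benjamini-Hochberg adjusted p-values and treat against a log2 change of 1; the scripts were tested on simulated data. Every member past an adjusted p of 0.05 for genotype or the interaction, the 5 highest in each tissue, the 5 largest tissue differences past treat, the members at the floor and the partners of all these are named. The members and lists were chosen with earlier results of these data known. The alternatives were no filter, a floor at the log2 of 50, array weights, median centring, each tissue alone, a replicate block and leaving out each sample. Same-numbered samples did not deviate together, so numbers do not pair them. Promoters were not analysed here. Figures were drawn with matplotlib 3.10.9.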

Additional observations from a re-analysis of the deposited data

Results flagged for a closer look

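The change by genotype differed between the tissues, by limma's interaction test, for 3 antisense RNAs. This was 6.12% of the members, near the 5.86% of all genes with an interaction in that direction. CR44976 kept the call in 6 and CR45144 in 4 of the 12 fits with a sample left out, and CR45600 in all. CR44976 and CR45144 reached the floor in mutant fat bodies alone. The change in fat bodies minus that in whole animals was 5.58 for CR44976, 2.21 for CR45144 and 3.90 for CR45600. Groups of 3 samples were not tested for single samples that stand apart.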

How the results depend on the processing

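Of the 11 members with a genotype or interaction call, CR45190 in both tissues, CR44976 and CR45144 in fat bodies, and CR45600 in whole animals kept their calls under every alternative they could be tested in, and no result reversed. At a floor of the log2 of 50, which left 6 members, 2 were higher and 1 lower in mutant fat bodies, 1 higher in mutant whole animals, 2 lower and 1 higher in mutant and 3 lower in control fat bodies than in whole animals. With each tissue fitted alone, which leaves fewer samples per fit, 3 were higher and 0 lower in mutant fat bodies (limma). At an unadjusted p under 0.05 that fit gave 10 higher and 3 lower in mutant fat bodies. In mutant whole animals 1 was higher with each tissue fitted alone. With array weights 4 were higher and 2 lower in mutant whole animals. With each sample centred on its median, 11 in mutants and 6 in controls were higher in fat bodies. With samples left out in turn, members higher in mutant fat bodies ranged from 5 to 8, lower from 1 to 4, interaction members from 1 to 4, and those higher in fat bodies from 1 to 4 in mutants and from 0 to 1 in controls. With the replicate number as a block, 1 member was higher in mutant whole animals and CR45144 did not pass (adjusted p = 0.177, limma); same-numbered whole animals had correlations of deviations between −0.126 and −0.021, so they share only a number. In fat bodies CR45874 lost its call under all 4 other settings it could be tested in, CR43944 under 3 (no filter on low values, array weights, each tissue alone), CR43964 and CR45835 under 2 (array weights, each tissue alone), and CR44029, CR44512 and CR45108 with each tissue alone. Among calls on single members, 33 of 192 were lost with a sample left out and 18 of 69 under other settings. Without counts, depth sets no limit that could be computed, and low members rest on values drawn toward their mean.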
